A study of Mus musculus with 20 samples.

Results

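The calcitonin family was followed in the diaphragm of mice injected with fibers into the pleural cavity. It comprised 8 genes, namely the peptide genes Calca, Calcb, and Adm, the receptor genes Calcrl and Calcr, and the receptor activity-modifying protein genes Ramp1, Ramp2, and Ramp3. Members were found by gene symbol in the scanner files, which gave 12 probes for these 8 genes, of 24105 gene symbols on the array. Calca was chosen from its rise in the long-fiber groups LFA and NTL against control on these same arrays, so its values in comparisons with those groups are described and not tested. The other 7 genes were chosen by name as relatives and receptors of its products, with earlier results from these arrays known.

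The arrays measured RNA from the diaphragm of 20 female C57Bl/6 mice, with 1 array per mouse and 4 mice in each of 5 groups. The mice were 8 weeks old at injection, and the tissue was taken 12 weeks later. LFA was amosite asbestos enriched for long fibers, and SFA was amosite from the same batch shortened in a ball mill, both given at 25 µg per mouse. NTL and NTS were long and short carbon nanotubes, given at 5 µg per mouse. NTS was purchased and NTL was made in a university laboratory, so between them length cannot be told apart from source. Mice of the control group received 100 µL of the vehicle, saline with 0.5% bovine serum albumin, in which all 4 fibers had also been dispersed. Each material was a single preparation, and asbestos and nanotubes were given at different doses, so the comparisons are between each fiber and the vehicle and between long and short fibers of the same material. The labels give the dose in mass only.

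Calca makes 2 hormones from a single gene by alternative splicing. Calcitonin is produced mainly by thyroid C cells and lowers blood calcium by acting on osteoclasts, and α-CGRP, the calcitonin gene-related peptide, is produced mainly by sensory and motor neurons and widens blood vessels. Calcb encodes β-CGRP, and Adm encodes adrenomedullin, a vasodilator made by many cells and induced by hypoxia and inflammation. CALCRL, the calcitonin receptor-like receptor, needs a RAMP partner at the cell surface. With RAMP1 it binds CGRP, and with RAMP2 or RAMP3 it binds adrenomedullin. CALCR is the calcitonin receptor, and both receptors act mainly through the stimulatory G protein and cyclic AMP.

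The probes decide which transcript each value stands for, so the parts that bear on the results are given first, each as the array file prints it, 5′ to 3′, with NCBI37 (mm9) positions from the file. Calca has 2 probes, 1744 bases apart on the minus strand of chr7, and the shared name hides 2 different transcripts. The probe at chr7:121775204-121775263 carries the accession of transcript variant 2, the CGRP form, and the probe at chr7:121776948-121777007 that of transcript variant 1, the calcitonin form. Calcb has 1 probe at chr7:121866534-121866593, on the plus strand of the same chromosome, 89527 bases beyond the second Calca probe. The last 30 of the 60 bases of these 3 probes are shown, to let the peptide transcripts be told apart, with capitals marking the polyadenylation signal letters AATAAA.
Calca variant 2 probe, bases 31 to 60: atccAATAAAcatgacagcatggttctggc
Calca variant 1 probe, bases 31 to 60: aggagaaagtcccacaggctaaaagagaat
Calcb probe, bases 31 to 60: tataaatgagttaattctgtgtttgtttgc
No 2 of the member probes shared a run of more than 8 bases, except the Ramp3 pair, whose positions on chr11 (6577416 to 6577475 and 6577424 to 6577483) overlap by 52 bases and which therefore are not independent measurements. Ramp1 has 3 probes. Its brightest probe spans introns, at chr1:93093453-93119708, a stretch of 26256 bases for a 60-base probe, and is read without a stop codon in 2 of its 3 forward frames. It is printed whole because the test results for Ramp1 rest on it.
Ramp1 exon-spanning probe: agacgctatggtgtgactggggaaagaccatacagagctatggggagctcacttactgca
The other Ramp1 probes lie at chr1:93121428-93121487, on the same accession, and at chr1:93103294-93103353, on transcript variant 3. The remaining members had 1 probe each, for Adm at chr7:117773088-117773147, for Calcrl at chr2:84173073-84173132, for Calcr at chr6:3635940-3635999, and for Ramp2 at chr11:101109501-101109560.

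The promoter of Calca is shown because Calca carried the largest changes of the family. The RefSeq promoter table (GRCm38.p6) held 7 promoters for 6 of the 8 genes. The 250 bases before the annotated start of Calca, on the minus strand at chr7:114636358-114636607, are given with capitals marking the letters TGACG, the short form of the element that the cyclic AMP-responsive factor CREB is known to bind.
Calca promoter: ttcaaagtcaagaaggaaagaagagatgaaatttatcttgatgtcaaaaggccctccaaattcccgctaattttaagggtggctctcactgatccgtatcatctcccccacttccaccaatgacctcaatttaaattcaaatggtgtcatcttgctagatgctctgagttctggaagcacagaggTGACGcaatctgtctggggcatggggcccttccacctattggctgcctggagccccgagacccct
The letters TGACG, searched on both strands, occurred once here, 65 bases before the start, and in 3 of the 7 member promoters, the other 2 being those of Calcr. Of 32851 mouse promoters, 17.8% hold them in a window of the same length. The full palindrome TGACGTCA (1.55% of promoters), the hypoxia-element core ACGTG (16.6%), and the AP-1 letters TGANTCA (6.75%), searched likewise, were found in 0 of the 7 member promoters. TGACG lies within TGACGTCA. A match is a run of letters and not a bound site.

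Levels are log2 signals relative to the 75th percentile of the same array, and they compare groups for 1 probe, not 1 probe with another. A gene was called when limma's test gave an adjusted p under 0.05 over all 36931 probes tested and a log2 change of at least 1, with its brightest probe standing for the gene. All 12 member probes passed the filter on dim probes. Liver transcripts differed widely between arrays. The mean level of 7 liver markers was 6.06 and 6.23 in LFA replicates 1 and 3 and 7.42 and 7.43 in NTS replicates 3 and 4, against −3.42 and −3.46 in LFA replicates 2 and 4. It was also above 5 in SFA replicate 2, at 5.80. The results that change when these 5 arrays are left out are marked where they occur. The RNA is from whole tissue, in which fewer cells of a type and less RNA per cell cannot be told apart. The tissue label was borne out by skeletal muscle markers, with a mean level of 8.05 to 8.27 over 8 genes in control.

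Against control, 2 of the 8 genes were called in LFA and 2 in NTL, where 4.58% and 8.23% of 18486 genes were called. In both groups the 2 genes were Calca and Ramp1. Calca was chosen from these same comparisons, so its place in the counts of called and of nonoverlapping genes is a description, and of the 7 other genes 1, Ramp1, was called in each group. In SFA and NTS limma called 0 of the 8 genes, as it did 0% of all genes in either comparison. At an unadjusted p under 0.05 these counts were 0 members of 445 genes in SFA and 1 member of 735 genes in NTS. The groups' arrays did not overlap for 2 of the 8 genes in LFA against control, where this held for 16.5% of all genes, and for 4 of the 8 in NTL, where it held for 22.3%. In NTS it held for 1 of the 8, Calcr, beside 1.77% of all genes. The median log2 change of the 8 genes was −0.28 in LFA and −0.25 in NTL, beside −0.15 and −0.18 for all genes. Quantile scaling moved the all-gene medians to 0.0008 and −0.02 and turned the sign of only 1 member's change against control in LFA or NTL, that of Adm in NTL.

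Calca, read by its CGRP-form probe, was higher in both long-fiber groups. In control its levels were −3.46, −2.97, −3.81, and −3.68. They were 1.41, 3.65, −0.08, and 2.83 in LFA and 3.37, 4.01, 1.97, and 4.11 in NTL. Every long-fiber array lay above every control array, and NTL replicates lay above LFA on average with overlapping ranges. In SFA the levels were −2.54, −3.02, −3.29, and −2.76, and in NTS they were −2.64, −4.00, −3.35, and −4.26. These 8 short-fiber arrays lay within or close to the control range. The mean exceeded control by 5.43 ± 0.63 (log2, SE, n = 4 per group) in LFA, a 43.2-fold difference, and by 6.85 ± 0.63 in NTL, a 115-fold difference. The difference from control was 0.58 ± 0.63 in SFA (limma, adjusted p = 0.999, 95% interval −0.74 to 1.89) and −0.08 ± 0.63 in NTS (adjusted p = 0.9999, interval −1.40 to 1.23). The long fibers exceeded the short ones by 4.86 in asbestos and by 6.93 in nanotubes. By group mean the order was NTL at 3.37, LFA at 1.95, SFA at −2.90, control at −3.48, and NTS at −3.56, and the last 3 overlapped.

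**Figure D1:**
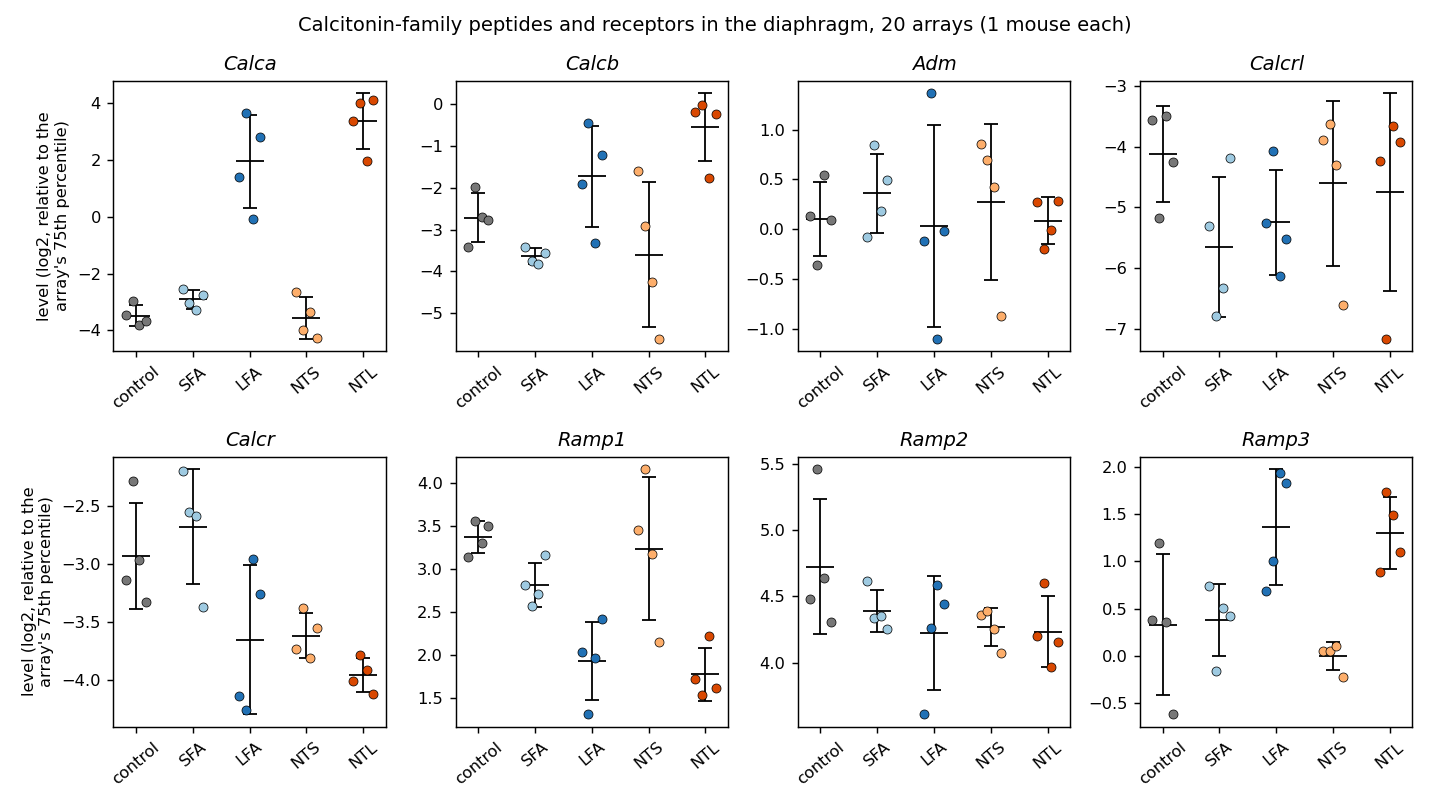
Level of each gene by its brightest probe on 20 arrays (y axis, log2 relative to the array's 75th percentile; scales differ between panels) in the 5 groups. Points are mice, bars the mean ± SD of 4 mice. Calca stands at −0.08 to 4.11 in LFA and NTL and at −4.26 to −2.54 elsewhere, and Ramp1 is lower in LFA and NTL than in control.

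Within LFA the level of Calca varied by more than in any other group, with an SD of 1.64. The lower values were those of replicates 1 and 3, the arrays with high liver markers, and without the 5 arrays named above the LFA difference was 6.72. The part of the liver transcripts in this was not tested. Without LFA replicate 3 alone the difference was 6.11, and normexp background correction gave 4.30 for LFA and 5.71 for NTL. The 3 array slides each held control and fiber arrays, with 1 or 2 control arrays per slide, but NTL arrays lay on slides 2 and 3 only. Within slides the difference was 4.62 to 7.47 for LFA and 6.58 to 7.18 for NTL.

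The calcitonin-form probe of Calca moved the same way by less. Its levels were −4.45, −3.86, −5.23, and −4.58 in control, −3.01, −1.55, −3.62, and −1.42 in LFA, and −1.96, −1.19, −2.48, and −1.60 in NTL. All 8 long-fiber arrays were again above all control arrays. The difference was 2.13 ± 0.51 in LFA (4.38-fold) and 2.72 ± 0.51 in NTL (6.60-fold), while SFA differed from control by 0.05 and NTS by −0.23. This probe was dim, well above background on 3 of 4 arrays in control, SFA, and NTS. Under normexp background correction its differences were 0.92 and 1.26. LFA replicate 3 had the lowest level of its group on both Calca probes, and NTL replicate 3 did in NTL.

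Calcb, the second CGRP gene, had its highest mean levels in NTL (−0.55) and LFA (−1.72) too, above control (−2.72), NTS (−3.60), and SFA (−3.64). Its levels were −3.43, −1.99, −2.69, and −2.78 in control, −1.90, −0.46, −3.31, and −1.22 in LFA, and −0.18, −0.02, −1.75, and −0.22 in NTL. All NTL arrays lay above all control arrays, whereas LFA replicate 3 lay within the control range. The change was 2.17 ± 0.69 in NTL (4.52-fold, adjusted p = 0.0610), short of the threshold, and 1.001 ± 0.69 in LFA (adjusted p = 0.387). The NTL change passed in several other settings, with an adjusted p of 0.0275 under normexp and 0.00718 without the 5 arrays with high liver markers. In SFA the levels were −3.42, −3.76, −3.82, and −3.55, and in NTS they ran from −5.61 to −1.60. Calcb was higher in NTL than in NTS by 3.05 ± 0.69 (adjusted p = 0.0102), although the groups overlapped and the call was lost with slide as a block. LFA exceeded SFA by 1.92 ± 0.69 with no overlap (adjusted p = 0.262), a difference that was called without the 5 arrays with high liver markers. Across the 20 arrays the levels of Calca and Calcb had r = 0.84, a description over arrays of 5 groups.

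Adm showed no difference that passed. Its lowest and highest levels were −0.36 and 0.55 in control, −1.10 and 1.37 in LFA, and −0.20 and 0.28 in NTL. The change was −0.07 ± 0.43 in LFA (95% interval −0.98 to 0.84) and −0.02 ± 0.43 in NTL (interval −0.93 to 0.90). Its sign turned when single arrays were left out, so no direction can be given.

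The receptor genes were dim. Calcrl was well above background on 12 of the 20 arrays and on only 1 of 4 in SFA. Its levels were −3.56, −5.18, −3.49, and −4.24 in control, −5.25, −4.08, −6.14, and −5.52 in LFA, and −4.24, −7.17, −3.66, and −3.93 in NTL. The ranges overlapped, and the differences were −1.13 ± 0.79 (adjusted p = 0.393) and −0.63 ± 0.79 (adjusted p = 0.686). Without NTL replicate 2 the second was 0.18.

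Calcr, the calcitonin receptor, was measured above background on all arrays. Its levels were −3.14, −2.28, −2.97, and −3.33 in control, −4.14, −4.25, −2.96, and −3.26 in LFA, and −4.00, −3.78, −3.91, and −4.12 in NTL. In NTS they were −3.73, −3.38, −3.81, and −3.55. All NTL and all NTS arrays lay below all control arrays, while LFA overlapped with control. The difference was −1.02 ± 0.31 in NTL (adjusted p = 0.0532), −0.72 ± 0.31 in LFA (adjusted p = 0.174), and −0.69 ± 0.31 in NTS (adjusted p = 0.9999), none of which passed. The NTL value passed without the 5 arrays with high liver markers (adjusted p = 0.0495) and when only probes above background on all arrays were tested (adjusted p = 0.0368).

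Ramp1, the partner that gives CALCRL its CGRP binding, fell in both long-fiber groups. On the exon-spanning probe its levels were 3.14, 3.56, 3.31, and 3.50 in control. They were 2.03, 1.31, 1.97, and 2.42 in LFA and 1.73, 1.53, 2.22, and 1.61 in NTL. All 8 long-fiber arrays lay below all 4 control arrays. The decrease was 2.72-fold in LFA (log2 change −1.45 ± 0.34, adjusted p = 0.0244) and 3.04-fold in NTL (−1.60 ± 0.34, adjusted p = 0.00770). In SFA the levels were 2.81, 2.58, 2.71, and 3.16 and in NTS 3.46, 4.17, 3.18, and 2.15, with differences of −0.56 ± 0.34 (adjusted p = 0.999) and −0.14 ± 0.34 (adjusted p = 0.9999). The LFA call was lost with slide as a block (adjusted p = 0.0508), with only LFA and control in the fit (0.0506), and without LFA replicate 2 (0.0840), control replicate 2 (0.0521), or control replicate 4 (0.0581). The NTL call held with any single array left out, with a highest adjusted p of 0.0289.

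The other Ramp1 probes did not pass. The single-block probe of the same accession gave −0.92 ± 0.46 in LFA (adjusted p = 0.228) and −1.34 ± 0.46 in NTL (adjusted p = 0.0799). The variant 3 probe gave −0.42 ± 0.37 and −0.26 ± 0.37 (adjusted p = 0.503 and 0.721). All 3 were negative in both groups, and the probes of this gene thus disagree in whether the threshold was reached.

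Ramp2, which with CALCRL forms an adrenomedullin receptor and is abundant in endothelium, was bright on all arrays. Its levels were 4.48, 5.46, 4.64, and 4.31 in control, 3.61 to 4.59 in LFA, and 3.97 to 4.60 in NTL. The groups overlapped, and the differences were −0.50 ± 0.26 (adjusted p = 0.255) and −0.49 ± 0.26 (adjusted p = 0.274). In control, replicate 2 stood highest.

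Ramp3, the other adrenomedullin partner, was higher in NTL than in NTS. On its brighter probe the levels were 0.38, 1.20, 0.36, and −0.62 in control, 0.69, 1.004, 1.94, and 1.83 in LFA, and 0.88, 1.73, 1.49, and 1.10 in NTL. In NTS they were 0.05, 0.05, 0.10, and −0.22. NTL lay wholly above NTS, and both long-fiber groups overlapped with the wide control range. The NTL to NTS difference was 1.30 ± 0.35 (adjusted p = 0.0286) and 1.19 ± 0.32 on the overlapping probe (adjusted p = 0.0271). Against control the changes were 1.03 ± 0.35 in LFA (adjusted p = 0.0946) and 0.97 ± 0.35 in NTL (adjusted p = 0.101), neither of which passed. They rested on single control arrays, since without control replicate 2 both passed (adjusted p = 0.0474 and 0.0403) and without control replicate 4 they were 0.72 and 0.65 (adjusted p = 0.229 and 0.272). Within slides the LFA difference ran from −0.10 to 2.50, and the NTL to NTS call was lost with slide as a block and without the 5 arrays with high liver markers.

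**Figure D2:**
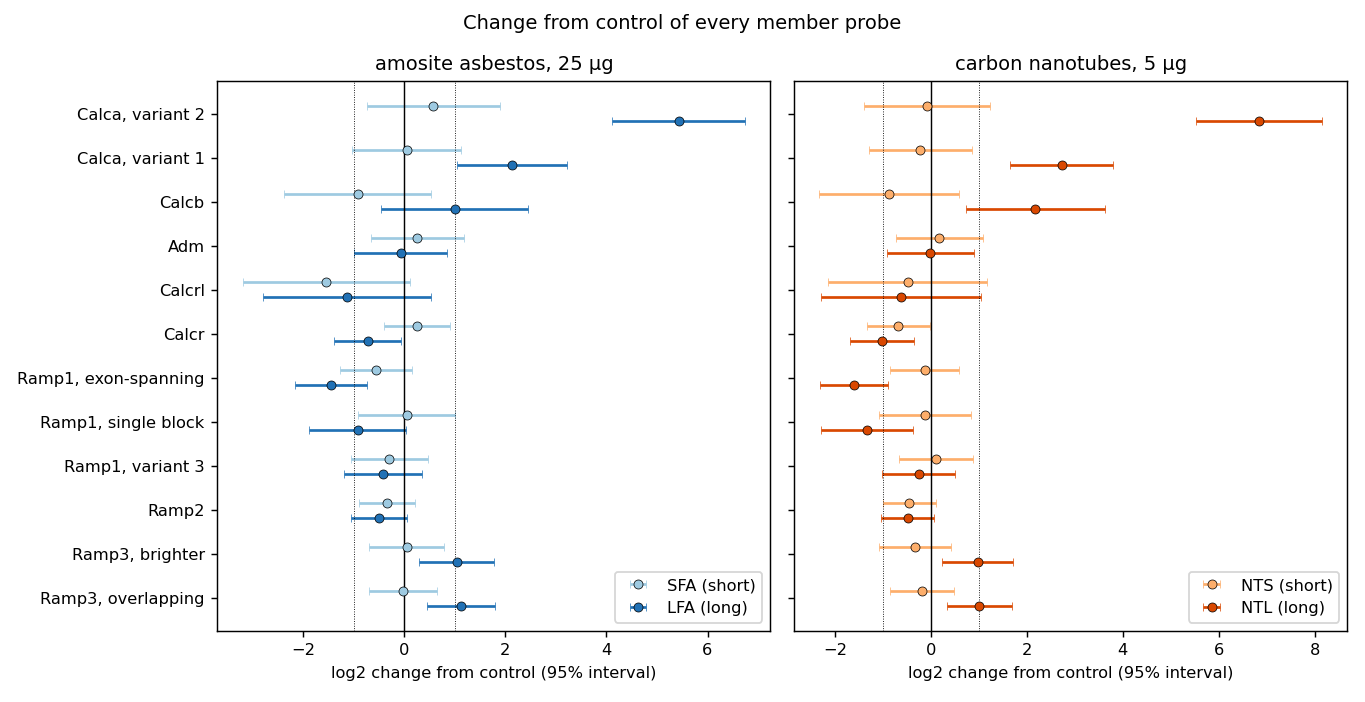
Log2 change from control (x axis) of the 12 probes, by short and long amosite asbestos (left, 25 µg) and short and long carbon nanotubes (right, 5 µg). Points are limma estimates from 4 mice per group, bars 95% intervals, and dotted lines mark a change of 1. The Calca points of LFA (5.43) and NTL (6.85) lie far to the right, the Ramp1 exon-spanning points (−1.45 and −1.60) to the left, and short-fiber intervals other than that of Calcr in NTS span 0.

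Long and short fibers of 1 material were compared at equal dose. LFA against SFA called 1 of the 8 genes, Calca, where 1.16% of all genes were called, and 3 of the 8 did not overlap (Calca, Calcb, and Ramp1), as for 9.42% of all genes. NTL against NTS called 4 of the 8, namely Calca, Calcb, Ramp1, and Ramp3, where 8.82% of all genes were called, and 2 of the 8 did not overlap (Calca and Ramp3), as for 19.2% of all genes. Ramp1 was lower in NTL than in NTS by a log2 change of −1.46 ± 0.34 (adjusted p = 0.0115) and differed by −0.88 ± 0.34 between LFA and SFA (adjusted p = 0.288). These counts include Calca, which was chosen on its long-fiber rise. Only 1 of the 4 NTL to NTS calls, that of Calca, held once slide was a block. NTL and NTS shared slide 2 alone, with 1 and 2 arrays, while the other NTL arrays were on slide 3 and the other NTS arrays on slide 1. Slide and fiber thus cannot be fully told apart between these 2 groups. Testing whether the long-to-short difference was unequal between materials in the same fit, 0 of the 7 other genes passed (adjusted p = 0.9999 for each). For Ramp1 the long-to-short difference of asbestos minus that of nanotubes was 0.58, with a 95% interval of −0.42 to 1.59. LFA and NTL differed in dose, and between them limma called 0 of the 8 genes, as it did 0% of all genes, with 1 member of 278 genes at an unadjusted p under 0.05.

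Genes around the peptides and receptors came from lists chosen with earlier results from these arrays known, and their counts are read beside the shares of all genes that rose (2.88% in LFA, 4.62% in NTL) and fell (1.69% and 3.61%). Among 8 genes of peptide processing and breakdown, 1 rose and 0 fell in both long-fiber groups. This was Pcsk1, the prohormone convertase that cuts peptide precursors in secretory cells. Its levels were −6.29, −4.38, −4.74, and −5.19 in control, −4.18, −2.95, −3.87, and −2.67 in LFA, and −2.95, −1.89, −3.34, and −3.14 in NTL. All long-fiber arrays lay above all control arrays. The rise was 1.73 ± 0.46 in LFA (adjusted p = 0.0408) and 2.32 ± 0.46 in NTL (adjusted p = 0.00499), with 1 of 4 control arrays above background. Furin, Pcsk2, Cpe, Pam, Mme, Ece1, and Ide did not pass in either group. Of the other peptides and binding partners, Iapp and Adm2 were too dim to be tested, and 0 of 3 tested genes were called.

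Downstream, 29 genes of the stimulatory G protein and cyclic AMP pathway were tested. In LFA 0 of the 29 were called, and in NTL 2 rose and 1 fell. Adcy7, an adenylyl cyclase, rose by 1.31 ± 0.38 (adjusted p = 0.0437), and Arrb2, a β-arrestin that uncouples receptors from G proteins, by 1.26 ± 0.30 (adjusted p = 0.0146). Gnas, which encodes the stimulatory G protein α subunit, fell by 1.01 on the log2 scale (SE 0.25, adjusted p = 0.0170). In LFA the same 3 genes differed by 0.93, 1.02, and −0.91. The median over the 29 genes was −0.27 in LFA and −0.02 in NTL, beside −0.15 and −0.18 for all genes.

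Of 7 early genes that cyclic AMP is known to induce, 0 rose and 2 fell in each long-fiber group. Ppargc1a, a coactivator of mitochondrial genes, fell by 1.72 in LFA (SE 0.43, adjusted p = 0.0336) and by 2.23 in NTL (SE 0.43, adjusted p = 0.00440). Sik1, a kinase, fell by 1.44 in LFA (SE 0.37, adjusted p = 0.0363), and Nr4a1, an orphan nuclear receptor, fell by 1.84 in NTL (SE 0.41, adjusted p = 0.00996). The short-fiber groups were also lower than control in these genes, with no call. In SFA and NTS the differences were −2.05 and −1.96 for Nr4a1, −1.70 and −1.35 for Sik1, and −0.70 and −1.07 for Ppargc1a. The median of the 7 genes was −0.95 in LFA and −1.05 in NTL, and it was −0.78 in SFA and −1.07 in NTS as well. Among 10 hypoxia-responsive genes, 0 rose, and 1 fell in LFA and 2 in NTL.

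Markers of cells that are known to make these peptides were set beside Calca. Of the thyroid markers, Slc5a5, Pax8, and Nkx2-1 were above background on 0 of the 20 arrays, and Tshr was not called. Tg, thyroglobulin, rose by 2.45 ± 0.45 in LFA (adjusted p = 0.00658) and 2.98 ± 0.45 in NTL (adjusted p = 0.000722). Its levels were −4.60, −3.68, −3.43, and −4.13 in control, −2.17, −1.21, −1.54, and −1.14 in LFA, and −1.21, −0.25, −1.39, and −1.07 in NTL. The long-fiber arrays thus lay above the control arrays for this 1 thyroid transcript, and the mean level of Tg and Tshr was −3.46 to −2.91 in control, −2.17 to −1.35 in LFA, and −2.02 to −1.02 in NTL. It was −2.80 to −2.09 in SFA, where every array also lay above control, and −3.49 to −2.05 in NTS. In SFA Tg differed from control by 0.54 and Tshr by 1.04, neither of them called. The SFA levels of Tg itself were −3.14, −2.71, −4.29, and −3.54, which overlapped with control, as those of Calca did. The part of Tg-containing cells in the Calca values was not tested.

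Of 8 neuroendocrine markers, 6 were tested and 0 were called in either long-fiber group, with a mean level of −3.12 to −2.52 in control, −3.40 to −2.35 in LFA, and −3.06 to −2.63 in NTL. Of 10 sensory neuron markers, 7 were tested. In LFA 0 were called, and in NTL Scn10a, a sodium channel of pain neurons, was at least 9.52-fold lower than control (adjusted p = 0.00381). This is a bound, because Scn10a was well above background on 0 of 4 NTL arrays. The mean level of the tested markers was −3.48 to −3.12 in control, −3.82 to −3.40 in LFA, and −3.73 to −3.42 in NTL, and Scn9a, Mrgprd, and Nefl were too dim to be tested. Of 8 genes of denervated muscle and the endplate, 0 were called in LFA and 1 rose in NTL, the adhesion molecule Ncam1 (1.93 ± 0.49, adjusted p = 0.0220).

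Cell markers that moved with the groups are given for the receptors. Of 8 macrophage markers, 6 rose and 0 fell in each long-fiber group, with a mean level of 1.73 to 2.23 in control, 3.07 to 4.06 in LFA, and 3.80 to 4.01 in NTL. Of 8 skeletal muscle markers, 2 fell in LFA and 3 in NTL, with a mean level of 8.05 to 8.27 in control, 6.83 to 7.48 in LFA, and 6.56 to 6.88 in NTL. All LFA and NTL arrays lay below control in muscle markers, as they did in Ramp1, and above it in macrophage markers, as they did in Calca. The part of either cell type in these values was not tested. Of 8 endothelial markers and 7 smooth muscle and pericyte markers, cells in which the receptors are known, 0 were called, with medians of −0.74 and −1.03 in LFA and −0.37 and −0.81 in NTL. Among 5 lymphatic endothelial markers, 1 rose in each group, and it was not the same gene. Lyve1 rose in LFA (1.17 ± 0.33, adjusted p = 0.0485) and Pdpn in NTL (1.04 ± 0.31, adjusted p = 0.0495), both close to the threshold. Neither was called in the other long-fiber group (Lyve1 0.88 in NTL, Pdpn 0.80 in LFA). Of 9 osteoclast and giant cell markers, cells that carry the calcitonin receptor, 1 rose in LFA and 2 in NTL with 0 falling. Of 7 mesothelial markers 0 were called.

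**Figure D3:**
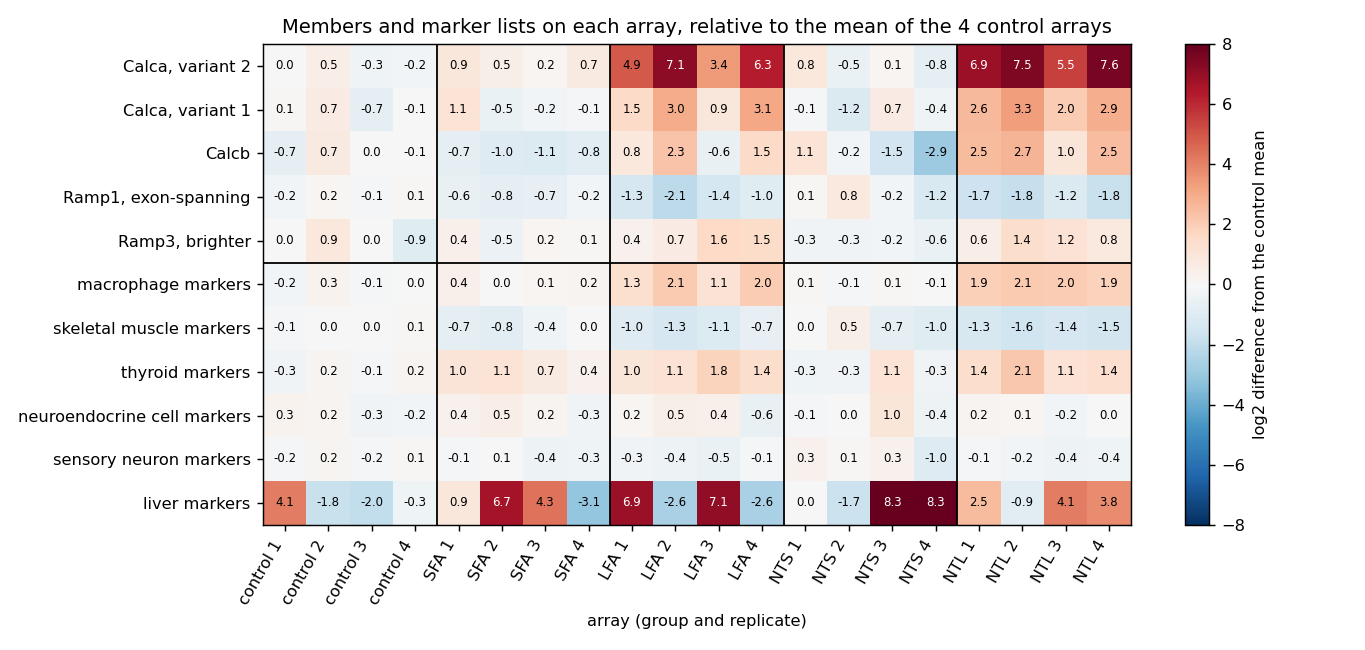
Log2 difference from the mean of the 4 control arrays (color and printed value) for 5 member probes and 6 marker lists (rows; a list is the mean of its tested genes) on each of 20 arrays (columns). Calca and macrophage markers are high on the LFA and NTL arrays, muscle markers and Ramp1 are low there, and liver markers vary from array to array within groups, from −3.46 to 6.23 in level within LFA.

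The genes with the pattern nearest to each member were ranked by Pearson's r over the 20 arrays among 18416 genes, as a description with the groups in common. For Calca they were BC055004 (r = 0.987), Timp1, a metalloproteinase inhibitor (0.985), and Adora2b, an adenosine receptor (0.978). For Calcb they were Lrrn2 (0.946), the cytokine gene Il11 (0.943), and Crtap (0.918). For Ramp1 they were Fkbp4, Endog, and Dand5 (0.970 to 0.969), and for Ramp3 Metrnl (0.927), Trpv2 (0.924), and Sri (0.920). For Calcr they were Kcna1 (0.921), Tnik, and Pkd2l2, for Adm they included Pphln1 and Stox1, for Calcrl Eid2, Klc1, and S1pr4, and for Ramp2 Fam65a, Nup62, and Ncaph2. Among the members themselves, Calca had r = −0.82 with Ramp1 and 0.73 with Ramp3.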

How the data were processed

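RNA from 20 diaphragms, 4 per group as the labels give them, was measured on 60K mouse arrays with a single dye. The authors deposited the output of Agilent Feature Extraction 10.7.3.1 for each array, in which a spot's processed signal is an intensity with the background already subtracted. They also deposited a table of normalized log2 values with 1 column per group, used as an alternative with no test. Columns of no known sample numbered 0. Outlier spots (92 to 204 per array) were left out and no spot was saturated. Repeated spots were averaged into 55681 probes, and log2 intensity was set relative to the array's 75th percentile (294 to 996 in signal). Of the probes, 53.0% to 68.1% were well above background on an array, and the number of arrays limits the precision. Probes above background on at least 4 arrays (36931, for 18486 genes) were fitted with limma 3.58.1 in R 4.3.3, with 5 group means and Benjamini-Hochberg adjustment over all probes, as tested on simulated data. Sequences came from the array files and the RefSeq promoter table, with Python 3.11.15, pandas 2.3.3, and matplotlib 3.10.9. Of the 12 probe accessions, 11 matched the RefSeq gene table.

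The members and lists were chosen with earlier results of these data known. All members are named, and of 4 pathway lists each gene called in LFA or NTL. Values of a few other list genes are not reported here. A probe dark in a whole group gave a fold as a bound, from the mean of the bright group over the mean, per array, of the higher of the probe's own signal and the lowest signal above background. Arrays with equal replicate numbers deviated together in NTL and control (correlations of 0.11 to 0.69) but not in every pair of the other comparisons (lowest −0.51), and the labels name no shared animal or batch. The alternatives were normexp background correction, quantile scaling, other filters, the authors' table, slide and replicate blocks, only the compared groups, the methods' unequal-variance test, and each array left out. Leaving out sets of arrays was chosen after seeing the data.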

Additional observations from a re-analysis of the deposited data

Results flagged for a closer look

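Of 60 sets of 4 arrays (12 probes in 5 groups), 2 held an array far from the other 3 by Dixon's criterion, and chance flags about 1 set in 20. Calcb stood at −1.75 in NTL replicate 3, with the other 3 NTL arrays between −0.22 and −0.02. Calcrl stood at −7.17 in NTL replicate 2, with the others between −4.24 and −3.66, and the probe was not well above background on 1 of these 4 arrays.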

How the results depend on the processing

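Under every alternative tried, the count of called genes in SFA or NTS against control and between LFA and NTL was 0 throughout. LFA against control called 2 genes, and 1 (Calca) with slide as a block, with only the compared groups, and, within a range of 1 to 2 with single arrays left out, without control replicate 4 or LFA replicate 2. NTL against control called 2, or 2 to 3 in other settings with all arrays, and 2 to 4 with single arrays left out, reaching 4 (Calcb and Calcr added) without LFA replicate 3 or NTS replicate 4. It was also 4 without both, and without the 5 arrays with the most liver transcripts. LFA against SFA called 1, 0 by the methods' unequal-variance test, and 2 (Calcb added) without both LFA replicate 3 and NTS replicate 4 or without those 5 arrays. NTL against NTS called 4, 1 with slide as a block or by the methods' test, 2 with only the compared groups or without both NTS replicates 3 and 4, and 3 to 4 with single arrays left out. With replicate number as a block the counts stayed at 2 for LFA and NTL against control, 1 for LFA against SFA, and 4 for NTL against NTS, and it changed no call.

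Adm turned sign, to 0.0025 in NTL under quantile scaling, 0.0056 in the authors' table, and 0.11 in LFA with slide as a block. With single arrays left out its extremes were −0.52 and 0.31 in LFA and −0.17 and 0.13 in NTL, and it was 0.31 in LFA without LFA replicate 3 and NTS replicate 4, and 0.57 without the 5 arrays. Calcrl in NTL ran from −0.99 to 0.18 with single arrays left out. Under normexp Calca was 4.30 above control in LFA and 5.71 in NTL, and with single arrays left out its extremes were 4.87 and 6.11 in LFA and 6.60 and 7.31 in NTL. The causes were not tested. Dim probes (Calcrl, and Calca variant 1 outside the long-fiber groups) are limited by signal over background.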
